A study of Mus musculus with 6 samples.

Results

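H3K9me3 of ESCs without Dicer (Dicer KO) was compared with that of ESCs lacking Dicer and Dnmt1 (Dicer KO/Dnmt1 cKO) over all 2 kb regions (tiles) of the autosomes, 1236182 of the 1327469 tiles of the genome. The tiles were chosen by chromosome alone, so no measured value decided which of them entered. The study asked how mouse ESCs (embryonic stem cells) keep transposable elements (TEs) silent once DNA methylation is lost. It removed DNMT1, the enzyme that copies CpG methylation onto new DNA strands, and DICER, the nuclease that makes microRNAs and endosiRNAs, and mapped repressive histone marks by ChIP-seq. A single library was available for each of H3K9me3, H3K9me2 and H3K27me3 in each genotype, 6 in all.

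Both genotypes carried loxP sites in both copies of Dnmt1 and a constitutive deletion of Dicer made by CRISPR/Cas9, and both were grown in serum with LIF. In the Dicer KO, Dnmt1 was intact. In the Dicer KO/Dnmt1 cKO, Dnmt1 had been deleted in addition by a Cre recombinase that tamoxifen (4OHT) switches on, and the number of days between induction and harvest is not given for these libraries in the sources used here. The labels name the strain E14, whereas the study's methods derive the cells from C57BL/6. Dicer KO cells were grown from single colonies, so a line stands for a clone. Whether both genotypes came from the same colony is not given in the sources used here. Libraries of ESCs with functional Dicer were not analysed here. With 1 library per genotype there is no replicate check, no p-value is given, and any other difference between the cultures cannot be told apart from the loss of Dnmt1.

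H3K9me3 is a mark of silent chromatin. In ESCs the methyltransferase SETDB1 places much of it, brought to DNA by the co-repressor TRIM28 and the large family of KRAB zinc finger proteins, each of which reads its own DNA sequence, often within an endogenous retrovirus. ZFP57, a member of that family, binds the letters TGCCGC when the CpG within them is methylated, and holds H3K9me3 on the methylated allele of imprinted germline DMRs, the stretches whose methylation is inherited from egg or sperm. Other enzymes, SUV39H1 and SUV39H2, mark the satellite repeats beside the centromeres, and the 3′ ends of zinc finger genes are a further known site of the mark.

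The following stretches come from loci at which the results turn, and were read from the NCBIM37 reference on the plus strand. Capitals mark every match to TGCCGC on either strand, which reads GCGGCA where the match is on the minus strand. A match is a description of the letters, not a site of binding. Of all 200-base stretches of the autosomes, 1.24% held a match. From the list of imprinted DMRs, 4 stretches lie in introns: Plagl1 (chr10:12810865-12811064), Mest (chr6:30688337-30688536), Snrpn (chr7:67149589-67149788) and Inpp5f (chr7:135831355-135831554). The stretch of H19 (chr7:149766099-149766298) lies outside annotated genes, upstream of the H19 start in the known control region of the locus. These 5 held 4, 2, 3, 3 and 2 matches in that order. The last pair comes from regions with some of the largest falls of H3K9me3. At Ezr (chr17:6949543-6949742, intron) a short unit is repeated head to tail and each copy carries the letters, giving 5 matches and 11 CpGs in 200 bases. The stretch whose nearest coding gene is Gpd2 (chr2:57482123-57482322, outside genes) is shown as a contrast, with 0 matches and 3 CpGs, and begins with copies of ttaggg, the unit of telomeric repeats.
Plagl1: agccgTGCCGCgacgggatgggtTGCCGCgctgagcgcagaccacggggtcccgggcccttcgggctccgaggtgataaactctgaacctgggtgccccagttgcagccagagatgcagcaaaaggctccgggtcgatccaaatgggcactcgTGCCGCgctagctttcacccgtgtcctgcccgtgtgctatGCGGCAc
Mest: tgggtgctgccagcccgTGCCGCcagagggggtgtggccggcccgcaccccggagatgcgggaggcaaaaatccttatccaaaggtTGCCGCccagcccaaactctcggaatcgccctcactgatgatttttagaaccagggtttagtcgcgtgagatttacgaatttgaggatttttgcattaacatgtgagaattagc
Snrpn: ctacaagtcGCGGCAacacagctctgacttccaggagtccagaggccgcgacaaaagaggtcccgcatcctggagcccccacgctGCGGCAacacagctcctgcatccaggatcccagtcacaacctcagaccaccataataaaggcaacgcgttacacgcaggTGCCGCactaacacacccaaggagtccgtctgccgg
Inpp5f: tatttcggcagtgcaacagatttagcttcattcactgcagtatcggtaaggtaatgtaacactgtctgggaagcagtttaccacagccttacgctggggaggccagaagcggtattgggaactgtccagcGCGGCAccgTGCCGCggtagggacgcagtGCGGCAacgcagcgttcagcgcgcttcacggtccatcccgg
H19: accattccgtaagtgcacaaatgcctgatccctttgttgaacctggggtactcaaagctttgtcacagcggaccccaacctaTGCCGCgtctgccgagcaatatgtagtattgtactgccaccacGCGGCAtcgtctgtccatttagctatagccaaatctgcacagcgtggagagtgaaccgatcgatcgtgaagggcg
Sytl3/Ezr: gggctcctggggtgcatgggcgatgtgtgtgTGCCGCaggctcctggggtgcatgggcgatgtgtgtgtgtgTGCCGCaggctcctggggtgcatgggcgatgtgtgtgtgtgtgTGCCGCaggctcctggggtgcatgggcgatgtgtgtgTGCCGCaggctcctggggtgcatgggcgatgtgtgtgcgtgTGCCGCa
Gpd2: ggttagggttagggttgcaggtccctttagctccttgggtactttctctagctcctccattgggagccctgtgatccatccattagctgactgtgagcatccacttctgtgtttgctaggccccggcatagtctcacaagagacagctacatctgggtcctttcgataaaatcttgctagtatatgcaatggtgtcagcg

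The autosomes held 17595072 reads of H3K9me3 before deletion of Dnmt1 (Dicer KO) and 18378044 after it (Dicer KO/Dnmt1 cKO). A tile held 14.2 and 14.9 reads on average, with a median of 13 and 14, and 5.23% of the tiles were without reads in each library. Levels below are reads divided by the mean autosomal tile of the same library, so the genome's average is 1. A change is the log2 ratio of the level in the Dicer KO/Dnmt1 cKO to that in the Dicer KO, with a 95% interval that covers counting error only, since PCR copies of a read are not independent. A rise or a fall is written only where that interval leaves out 0. Levels are relative to each library's own reads, so a change shared by the whole genome would not appear.

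H3K9me3 stood out from an even background in few places. In the Dicer KO, 6471 tiles reached a level of 3, and in the Dicer KO/Dnmt1 cKO 3929 did. At a level of 5 the numbers were 639 and 391, whereas at a level of 10 they were 116 and 117. Tiles at intermediate levels were thus fewer upon Dnmt1 deletion, while the number of tiles with the highest levels was nearly the same. This was not particular to H3K9me3. At a level of 3, H3K9me2 had 874 and 558 tiles, and H3K27me3 20532 and 14380. At a level of 20 they had 51 and 50, and 49 and 55. What made such tiles fewer in all 3 marks was not tested. Where the libraries averaged 10 reads or more per tile, the levels were 2-fold or more apart in 7.51% (with a Wilson interval of 7.46% to 7.57%), and 37326 of these gained reads upon Dnmt1 deletion while 31580 lost them. At such depth, counting error alone moves many single tiles, and most values below are therefore sums or regions.

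To find loci that carry the mark, a tile was taken as rich where the mean of its 2 H3K9me3 levels was at least 3 and at least 2 times its mean level in the 4 libraries of H3K9me2 and H3K27me3, which stood in for an input library. Both genotypes counted equally, so that the choice favoured neither loss nor gain. This gave 3931 rich tiles, 0.318% of the autosomes. Without the condition on the other marks, 4462 tiles reached the level of 3. Rich tiles with at most 1 tile between them were joined into 2958 rich regions, of which 2317 were a single tile and 41 spanned at least 10 kb.

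Rich tiles lay mostly outside protein-coding genes. Of them 23.0% overlapped a coding gene, against 39.8% of all autosomal tiles, and 1.88% held the start of a coding gene, against 3.08%. Their sequence differed as well. The median rich tile held 22 CpGs and 44.4% GC, against 14 CpGs and 41.6% GC over all tiles, and 29.2% of rich tiles held TGCCGC, against 10.8%. Words of 16 bases that occur at least 100 times in the genome made up 16.1% of the median rich tile and 7.91% of the median tile. Every autosome carried rich tiles, from 0.218% of the tiles of chromosome 19 to 0.450% of those of chromosome 14.

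A small set of tiles held most of the reads. At a level of at least 20, a boundary chosen after seeing the data, there were 36 rich tiles, with 79.9% of all reads in rich tiles of the Dicer KO. Summed over these 36, H3K9me3 stood at 1733 times the average before and 1783 times after Dnmt1 deletion, a rise of 0.04 (0.04 to 0.05). These values are carried by 3 tiles at Gm10801 and Gm10800, which hold 768904 and 828020 of the 887880 and 954185 reads. In the other 33, a split chosen after seeing the data, the level was 253 and 257, a rise of 0.02 (0.01 to 0.03). The remaining 3895 rich tiles went from a mean level of 4.02 to 3.45, a fall of 0.22 on the log2 scale (−0.23 to −0.21). Since the 36 tiles dominate the total, the sum over all rich tiles moved by −0.007 (−0.011 to −0.003), with 1110554 and 1154201 reads, or from 6.31% to 6.28% of autosomal reads. The direction of that total depends on how rich tiles are chosen, as it was −0.05 when they were chosen in the Dicer KO alone and 0.03 when chosen in the Dicer KO/Dnmt1 cKO alone. Scaling moved the total too, to −0.018 with the median log2 ratio of tiles set to 0. A rise as small as the 0.02 in the 33 tiles is therefore not firm against scaling. In the 3895 tiles, H3K9me2 moved by −0.05 (−0.07 to −0.03) and H3K27me3 by 0.05 (0.04 to 0.07), both less than H3K9me3. The choice of rich tiles disfavoured these marks, whose levels there were 0.713 and 0.688, and 0.831 and 0.863. The values therefore do not show whether the fall was particular to H3K9me3. Where H3K27me3 was high, at the starts of 8 developmental genes, it fell from 6.16 to 4.67 (−0.40, −0.50 to −0.30).

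The size of the change depended on the level. Over all tiles grouped by their mean H3K9me3 level, it was −0.05 below a level of 0.25 (93042 tiles) and within 0.03 of no change between levels of 0.25 and 2. It was −0.10 between 2 and 3 (23415 tiles), −0.19 between 3 and 5 (3993 tiles) and −0.19 between 5 and 10 (353 tiles). Between 10 and 20 it was −0.08 (42 tiles), and from 20 upwards 0.04 (74 tiles). Among tiles that also met the condition on the other marks, every group under a level of 20 fell, by 0.02 between 0.75 and 1, by 0.15 between 2 and 3 and by 0.30 between 5 and 10. Tiles with a moderate excess of H3K9me3 thus lost part of it, and those with an extreme excess of reads did not. In these 74 tiles the other marks were extreme as well, at 171 and 140 for H3K9me2 and 94.5 and 123 for H3K27me3. Without an input library, how much of their reads stands for H3K9me3 was not tested.

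Of the rich regions, 1641 held at least 100 reads over both libraries and were followed singly. Their median change was −0.21, with quartiles of −0.40 and −0.04, and 1300 of them lay below 0. At least 1.5-fold lower were 153 (9.32%), and at least 1.5-fold higher were 3 (0.183%). The counting interval lay wholly below 0 in 326 regions (19.9%) and wholly above 0 in 9 (0.548%). Single tiles give the comparison with the rest of the genome. Of all autosomal tiles with at least 50 reads, 9.19% were at least 1.5-fold lower and 6.00% at least 1.5-fold higher. Of rich tiles with at least 50 reads, 12.5% were lower and 0.661% higher. By intervals, 4.10% of all autosomal tiles with at least 50 reads lay wholly below 0 and 1.84% wholly above. These sets differ in depth, since a level of 3 requires more than 50 reads and some regions sum several tiles, so their shares are not directly comparable. When changes were counted from the median of the rich regions themselves, a setting chosen after seeing the data, 37 regions were lower and 28 higher.

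**Figure D1:**
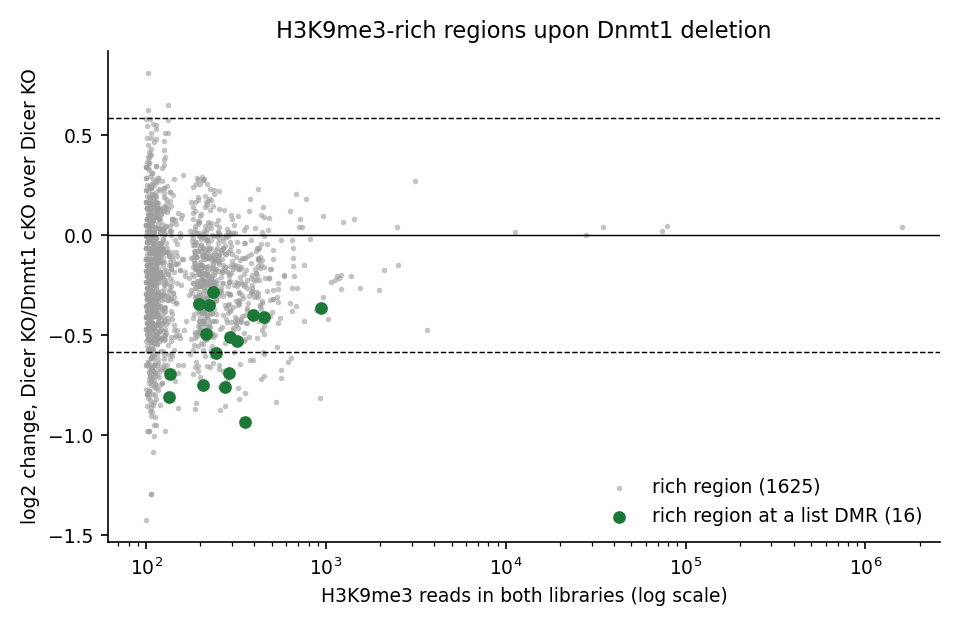
Change of H3K9me3 upon Dnmt1 deletion (vertical, log2) against the reads of both libraries (horizontal, log scale) for the 1641 rich regions with at least 100 reads. Dashed lines stand at 1.5-fold; 153 regions lie below the lower line and 3 above the upper line, and green points are the 16 regions at imprinted DMRs.

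The regions with the largest falls were ranked by the bound of the interval nearest to 0, so their values are a description. First was a tile across Ube2l6, which encodes a ubiquitin-conjugating enzyme, and Smtnl1, a smoothelin-like gene of muscle (chr2:84650001-84652000, exon, 50 CpGs). It went from 72 to 28 reads, a fall of 1.43 on the log2 scale (−2.11 to −0.78). A pair of intergenic tiles came next with the same reads, 75 and 32, and the same change of −1.29 (−1.94 to −0.68). Their nearest coding genes were Pax8, a transcription factor of thyroid and kidney, 34882 bp away (chr2:24366001-24368000), and Slc1a3, a glutamate transporter of glia, 119237 bp away (chr15:8780001-8782000). In these 3 tiles the mean level of the other marks was 0.871, 0.964 and 0.727, and none of them held TGCCGC.

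Falls over longer stretches rested on more reads. The region of Sytl3, a gene of vesicle transport, and Ezr, which encodes the membrane linker ezrin (chr17:6938001-6954000, exons), spans 16 kb with 338 CpGs and 12 TGCCGC matches, among them those of the tandem unit shown above. H3K9me3 there went from 578 to 343 reads, or from a level of 5.08 to 2.88, a fall of 0.82 (−1.01 to −0.62). H3K9me2 held 42 and 62 reads over the same 16 kb and H3K27me3 64 and 58, and both intervals of change included 0. The 6 kb of Blcap and the imprinted Nnat within its intron (chr2:157382001-157388000) went from 229 to 125 reads, a fall of 0.94 (−1.26 to −0.62). Zfp777, which encodes a zinc finger protein, lost H3K9me3 over 4 kb (chr6:47972001-47976000, exon, 100 CpGs), from 163 to 93 reads (−0.87, −1.26 to −0.50). Ankrd6, a gene of Wnt signalling, did so over 4 kb as well (chr4:32978001-32982000, exon), from 173 to 100 reads (−0.85, −1.22 to −0.49).

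The tile nearest to Gpd2, which encodes the mitochondrial glycerol-3-phosphate dehydrogenase, lay 258871 bp from it (chr2:57482001-57484000). It had the highest level among the falls, 23.4 before and 13.1 after Dnmt1 deletion, from 333 and 195 reads (−0.83, −1.10 to −0.58). Repeated words made up 89.7% of this tile, and it held 11 CpGs, so it shared neither the CpG content nor the motif of the imprinted loci. Whether its reads come from this copy of the repeat alone was not tested.

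Rises were small or rested on few reads. The 3 regions at least 1.5-fold higher were single tiles. An intron of Maml3, a coactivator of Notch signalling (chr3:51732001-51734000), went from 36 to 66 reads (0.81, 0.20 to 1.44). An intron of Cdh13, which encodes a cadherin (chr8:121324001-121326000), went from 50 to 82 reads (0.65, 0.13 to 1.19). The third, 9850 bp from Cab39, a partner of the kinase LKB1 (chr1:87758001-87760000), went from 39 to 63 reads (0.63, 0.03 to 1.24). None of the 3 held TGCCGC. A tile 36385 bp from Gm6557 (chr16:21024001-21026000) rose by 0.58 (0.06 to 1.11), from 52 to 81 reads.

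The other named rises belonged to loci with extreme levels. At Sfi1, a centrosome gene, and Drg1, a GTP-binding protein gene (chr11:3092001-3094000), H3K9me3 went from 1380 to 1740 reads, or from a level of 97.0 to 117, a rise of 0.27 (0.17 to 0.37). H3K27me3 rose there by a like amount, 0.28 (0.13 to 0.43), and H3K9me2 changed by −0.05 (−0.26 to 0.15). The locus of Gm10801 and Gm10800 (chr2:98502001-98508000) had the most reads of all, 768904 and 828020, with a rise of 0.04 (0.04 to 0.05). Rises of 0.05 and 0.04 were seen 22581 bp from Gm5614 (chr9:35112001-35114000; 37732 and 40719 reads) and at Gm10722 and Gm11168 (chr9:3000001-3006000; 16834 and 18104 reads).

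Extreme levels were not particular to H3K9me3. In the 33 rich tiles with a level of at least 20 outside Gm10801 and Gm10800, H3K9me2 stood at 49.2 and 41.7 times its average and H3K27me3 at 24.8 and 34.2 times. The 8 regions with the highest H3K9me3 levels included those just named and 4 others. Next to the start of the assembled chromosome 12 (chr12:3108001-3112000), 124611 bp from 1700012B15Rik, the level was 480 in each library. In Chl1, an adhesion molecule of neurons (chr6:103598001-103600000), it was 384 and 389. Over the 26 kb of Gm10721, Gm10720 and Gm10719 (chr9:3014001-3040000) it was 194 and 197, and in an intron of Cdk5rap2, a centrosome gene (chr4:70038001-70040000), 84.6 and 87.0. The sequence of the 26 kb repeats with a period of 234 bp, at which 71.1% of bases were the same, and Gm10722 shared 94.2% of its words with it, Gm10801 16.6% and Chl1 0. In these 4 regions the interval of the change included 0 or began at 0.0003, so no loss was detectable at a depth of 2498 to 74102 reads. H3K9me2 fell in each of the 4, by 0.24 to 0.30, and H3K27me3 rose, by 0.43 to 0.69, as it did at Gm10801 (0.55).

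Imprinted germline DMRs lost H3K9me3 more than other rich loci. Of 21 genes on the list, 19 were found in the annotation, and each was represented by the tile with most H3K9me3 reads near its start. That tile was rich in 16 of the 19. Summed over the 19 tiles, H3K9me3 went from 1495 to 1035 reads, or from a level of 5.53 to 3.66, a fall of 0.59 (−0.71 to −0.48). The change was below 0 in 18 and its median was −0.57. Among the 18, Zdbf2 and Mcts2 had 13 reads in each library, so only library size put them below 0. In 12 the counting interval lay wholly below 0 and in 0 wholly above. At least 1.5-fold lower were 9 of the 17 with at least 50 reads, and 0 were higher, beside the 12.5% and 0.661% of rich tiles given above. The median over the 16 rich ones was −0.70, whereas it was −0.24 over the 1805 rich tiles within the same range of levels, 3.48 to 9.65, and −0.06 over all tiles with at least 50 reads. H3K9me2 was scarce in the 19 tiles (level 0.371 and 0.360) and H3K27me3 near average (1.05 and 1.01). Neither changed beyond its counting interval.

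Among the DMRs methylated in sperm, the one upstream of Meg3, a long non-coding RNA of the Dlk1 locus, had the highest level on the list (chr12:110766001-110768000, intergenic). It went from 157 to 123 reads, a fall of 0.41 (−0.77 to −0.07) that left a level of 8.27. The control region of H19, the non-coding RNA opposite Igf2 (chr7:149766001-149768000), went from 82 to 53 reads (−0.69, −1.22 to −0.18). Upstream of Rasgrf1, a Ras exchange factor (chr9:89774001-89776000), there were 65 and 48 reads, with an interval that included 0 (−0.50, −1.07 to 0.06). The tile chosen for Zdbf2, at a start of the gene, carried no excess of the mark, with 13 reads in each library. It held 10 CpGs and 0 matches to TGCCGC, and whether it lies in the DMR of that gene was not tested.

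Among DMRs methylated in eggs, that of Plagl1, a zinc finger regulator of growth (chr10:12810001-12812000), had the largest fall on the list, from 76 to 39 reads (−1.03, −1.62 to −0.45). Its level went from 5.34 to 2.62, under the threshold for a rich tile. In the tile of Nnat, a small membrane protein of neurons, reads went from 95 to 50 (−0.99, −1.51 to −0.48). Mest, a hydrolase-like gene of mesoderm, went from 96 to 56 reads (−0.84, −1.34 to −0.35), and Snrpn, a gene of the splicing machinery, from 84 to 50 (−0.81, −1.35 to −0.29). At Peg3, which encodes a zinc finger protein, there were 100 and 60 reads (−0.80, −1.29 to −0.32). These losses were close in size, and their intervals overlapped throughout.

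Similar values were found at further genes of this class. Reads went from 92 to 57 at Inpp5f, an inositol phosphatase (−0.75, −1.26 to −0.26). They went from 74 to 47 at Zrsr1, a splicing factor gene within Commd1 (−0.72, −1.28 to −0.17), and from 99 to 63 at Grb10, an adaptor that restrains growth signals (−0.71, −1.19 to −0.24). Grb10 was also the gene of this class with most H3K27me3, which fell from 101 to 51 reads (−0.63, −1.15 to −0.13). H3K27me3 rose at Mest, from 12 to 21 reads (1.16, 0.07 to 2.32), and at Zrsr1, from 1 to 7 (3.16, 0.20 to 8.65). Falls under 1.5-fold were seen at Airn, the non-coding RNA that silences Igf2r (104 to 73 reads, −0.57, −1.03 to −0.13), and at Nespas, antisense to Gnas (92 to 66 reads, −0.54, −1.02 to −0.07).

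The interval included 0 at Peg10, a gene derived from a retrotransposon (69 and 58 reads, −0.31, −0.84 to 0.21), at Impact, a regulator of translation (55 and 46 reads, −0.32, −0.92 to 0.27), and at Nap1l5, a retrogene within Herc3 (107 and 92 reads, −0.28, −0.70 to 0.13). Nap1l5 thus kept a level of 6.19, the highest on the list upon Dnmt1 deletion after Meg3. At Mcts2, a retrogene within H13, 13 reads were counted in each library, and at Slc38a4, an amino acid transporter, 22 and 28 (0.29, −0.57 to 1.16). These 2 and Zdbf2 were the ones without a rich tile.

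**Figure D2:**
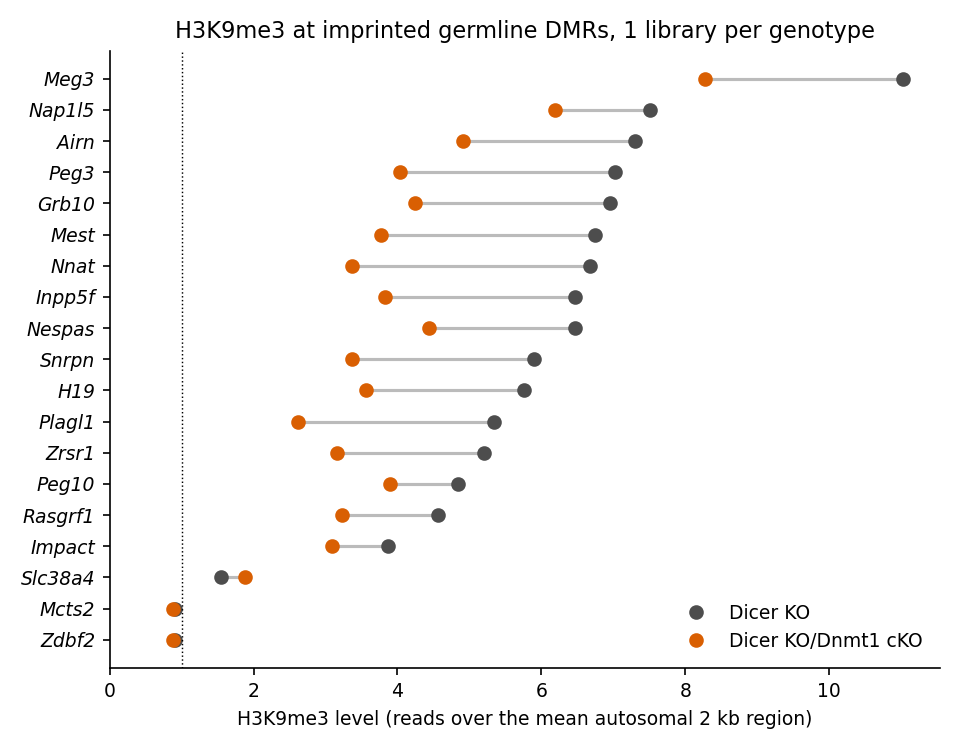
H3K9me3 level (reads over the mean autosomal tile) in the tile with most reads near each of 19 imprinted genes, in the Dicer KO (grey) and the Dicer KO/Dnmt1 cKO (orange), 1 library each. The level was lower upon Dnmt1 deletion in 18 of the 19, among them Zdbf2 and Mcts2 with 13 reads in each library. The dotted line marks the genome's average of 1.

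The mean loss was largest at the chosen tile and reached 4 kb to either side. Averaged over the 19 genes, the level in the Dicer KO was 5.53 at the chosen tile, 3.18 at 2 kb to the left and 3.65 at 2 kb to the right, and 2.12 and 2.38 at 4 kb. It reached 1.28 and 1.25 at 8 kb. In the Dicer KO/Dnmt1 cKO the levels were 3.66 at the centre, 2.56 and 2.72 at 2 kb, and 1.11 and 1.23 at 8 kb. The change was −0.59 at the centre, −0.32 and −0.42 at 2 kb, −0.34 and −0.39 at 4 kb, and at 6 kb its interval included 0 on both sides. Farther out, the interval left out 0 at 18 kb to the right alone, where H3K9me3 rose by 0.29 (0.02 to 0.55). H3K27me3 fell as well in places on both sides, to the left at 2 and 12 kb (−0.21 at each) and to the right at 4, 6, 8 and 10 kb (−0.37 at 4 kb, −0.55 to −0.18). At 4 kb to the left its change was 0.15 (−0.03 to 0.34). H3K9me2 was lowest at the centre with 0.371 against 1.00 and 0.969 at 20 kb. The chosen tile is the one with most reads, which raises the central value in both genotypes. Over the whole windows the median change was −0.31, with 17 genes below 0.

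**Figure D3:**
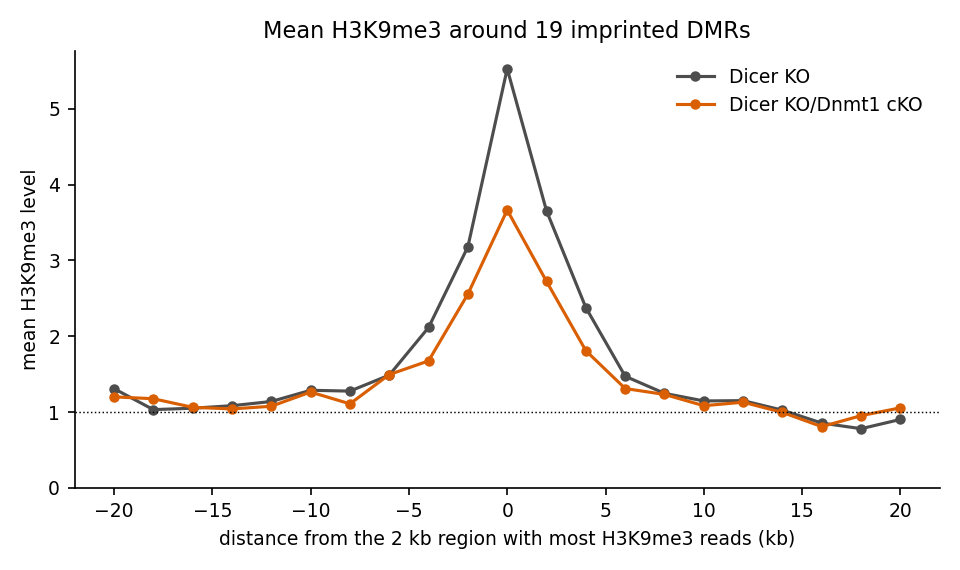
Mean H3K9me3 level at 19 imprinted genes by distance from the tile with most H3K9me3 reads, in both genotypes. The curves differ at the centre (5.53 and 3.66) and meet near the average by 8 kb.

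Because 17 of the 19 tiles held TGCCGC, rich tiles were next grouped by the number of these letters. The fall was largest in tiles with most matches. Among rich tiles with a level under 20, it was −0.20 in 2752 tiles without a match (−0.21 to −0.19) and −0.22 in 819 tiles with 1 (−0.24 to −0.20). With 2 matches it was −0.31 (224 tiles, −0.35 to −0.27), with 3 it was −0.31 (59 tiles, −0.38 to −0.24) and with 4 or more −0.49 (41 tiles, −0.57 to −0.42). In the last group the level went from 6.17 to 4.38. Many of these tiles belong to the imprinted list. Without the windows of that list, a setting chosen after seeing the data, 25 tiles with 4 or more matches remained and gave −0.45 (−0.54 to −0.35). Kcnq1ot1 and Peg13, not found in the annotation, had no windows to leave out. Tiles at them or at imprinted genes off the list may thus remain.

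Tiles with many matches also hold many CpGs and have higher levels, so both were held within limits. The windows of the imprinted list were kept in these groups, which were not repeated without them. Among rich tiles with at least 40 CpGs, the change was −0.15 without a match (161 tiles), −0.23 with 1 (226 tiles), −0.31 with 2 (91 tiles) and −0.41 with 3 or more (65 tiles, −0.47 to −0.35). Between 25 and 39 CpGs the values were −0.17, −0.22, −0.29 and −0.35 in the same order. At levels between 5 and 20, tiles without a match changed by −0.20 (151 tiles), tiles with 1 by −0.26 (50 tiles), tiles with 2 by −0.59 (18 tiles, −0.69 to −0.49) and tiles with 3 or more by −0.47 (35 tiles, −0.55 to −0.40). At levels between 3 and 5 they were −0.20, −0.21, −0.27 and −0.33 in the order 0, 1, 2 and 3 or more. In tiles with 14 CpGs or fewer the order was not seen, with −0.22 without a match, −0.21 with 1 (67 tiles) and −0.23 with 2 (7 tiles). Between 15 and 24 CpGs the values were −0.21, −0.22, −0.43 (24 tiles) and −0.42 (7 tiles). The order by matches thus held in tiles with at least 25 CpGs and at levels between 3 and 5, and did not hold at levels between 5 and 20, where tiles with 2 matches fell most. Over all autosomal tiles with at least 50 reads, the change was −0.03 without a match and −0.38 with 4 or more (82 tiles). With no minimum of reads it was −0.003 without a match, 0.03 with 1 and −0.19 with 4 or more (929 tiles). In those 929 tiles H3K27me3 fell by 0.52 (−0.54 to −0.49) and H3K9me2 rose by 0.20 (0.14 to 0.26). Matches share tiles with other sequence, so what else these tiles have in common was not tested.

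**Figure D4:**
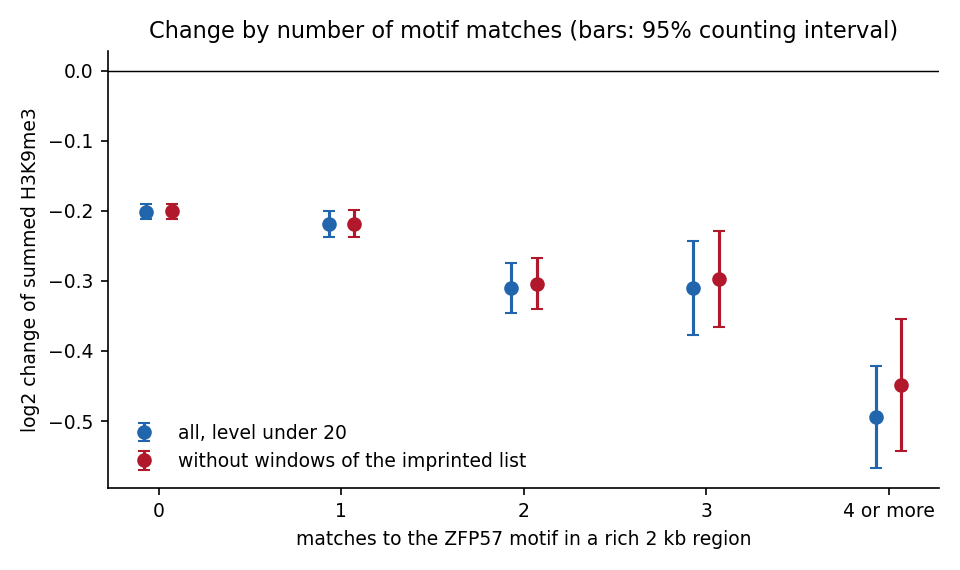
Log2 change of summed H3K9me3 (vertical) by the number of matches to the ZFP57 motif (horizontal) in rich tiles with a level under 20, for all such tiles (blue) and without the windows of the imprinted list (red). Bars are 95% counting intervals; values go from −0.20 without a match to −0.49 and −0.45 with 4 or more.

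CpG number by itself gave another picture. Over all autosomal tiles the change went from −0.09 in tiles with 0 to 5 CpGs to 0.08 in tiles with 23 to 29 and 0.06 in those with 30 or more. H3K27me3 had a like slope at the low end, from −0.06 with 0 to 5 CpGs to 0.05 with 23 to 29, and H3K9me2 went from −0.03 to 0.05 in the same tiles. In rich tiles with a level under 20, H3K9me3 fell in every group, by 0.26 with 0 to 5 CpGs, by 0.21 with 23 to 29 and by 0.22 with 30 or more. These groups mix tiles with and without TGCCGC. Among rich tiles without a match, the fall was smaller with more CpGs, at −0.22 with 14 or fewer, −0.21 with 15 to 24, −0.17 with 25 to 39 and −0.15 with 40 or more.

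Genes of the zinc finger family were followed at both ends, since their 3′ ends are known to carry the mark. Of 337 coding genes named Zfp with a number, 258 were at least 8 kb long. Their last 4 kb had a level of 1.01 that became 0.991 upon Dnmt1 deletion (−0.03, −0.07 to 0.02), and their first 4 kb 0.648 and 0.642. In the 13743 other coding genes of that length, the last 4 kb had 0.819 and 0.847 (0.05, 0.04 to 0.05). The level at the ends of Zfp genes thus did not change beyond counting error, while that at other ends rose, so the small excess of Zfp ends narrowed. The other marks rose at both kinds of end, H3K9me2 by 0.15 at Zfp ends and 0.11 at other ends, and H3K27me3 by 0.11 and 0.05. A rich tile lay in the last 4 kb of 8 Zfp genes (3.10%), against 0.306% of other genes. Of 128 Zfp ends with at least 50 reads, 7 were at least 1.5-fold lower and 9 higher, where 4.96% of all coding gene ends with such depth were lower and 9.33% higher.

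Among the 8 Zfp ends with a rich tile, the most reads per kb were found at Zfp13, which fell by 0.62 on the log2 scale, from 155 to 105 reads. Zfp777 fell from 139 to 104 reads in its last 4 kb (−0.48, −0.86 to −0.10), and Zfp629 held 121 and 116 reads (−0.12, −0.50 to 0.26). The other 5 were chosen after their values were seen. Zfp668, Zfp11 and Zfp180 also fell, from 109 to 62, from 134 to 85 and from 123 to 90 reads. Zfp2 and Zfp787 had intervals that included 0 (87 and 77, and 98 and 91 reads). Rich tiles with a level under 20 fell by 0.22 in general. Zfp ends without a rich tile went both ways. Zfp53 fell (−0.90, −1.79 to −0.05), while Zfp735 had a value above 0 (0.77, −0.11 to 1.69), both chosen after their values were seen.

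TEs were approached through their sequence, as a repeat annotation was not used here. H3K9me3 changed with the share of a tile made up of words that occur at least 100 times in the genome. The change was 0.02 in tiles with under 5% of such words, 0.01 between 5% and 10%, −0.05 between 30% and 40%, −0.11 between 70% and 80% and −0.08 from 80% upwards. H3K9me2 also changed along these groups, from −0.003 under 5% to −0.06 between 70% and 80% and −0.09 from 80% upwards. The share of rich tiles peaked between 30% and 40% of repeated words, at 0.922%, and was 0.168% under 5% and 0.005% from 80% upwards. Reads with several possible places had been discarded, and the level in tiles with the most repeats was 0.216 in the Dicer KO. Among rich tiles with a level under 20 the change was between −0.19 and −0.25 in every group from under 5% to 70%. It was −0.30 between 70% and 80% (16 tiles, −0.44 to −0.17). From 80% upwards there were 2 tiles, and the one nearest to Gpd2 held 333 of their 395 reads in the Dicer KO.

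LTR retrotransposons begin and end with the same sequence, the long terminal repeat. Pairs of direct repeats 3 to 9 kb apart were therefore searched in the reference, and 5778 pairs with a median length of 6397 bp were kept. They were grouped by shared sequence into families, which are numbered here by size and were not given TE names. Rich tiles were frequent beside them. Of all rich tiles, 29.5% lay in or within 4 kb of a pair, against 3.72% of all tiles. In the tiles that hold the edges of a pair, the H3K9me3 level went from 1.16 to 1.08 (−0.11, −0.12 to −0.10). That level was 2.19 and 2.02 times the mean of the other marks in the same tiles.

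The families differed in how much H3K9me3 they carried. In the largest, with 919 pairs, the edge tiles had a level of 1.42 and 1.28, 3.71 times the other marks in the Dicer KO, and fell by 0.14 (−0.17 to −0.12). Family 5, with 249 pairs, had the strongest signal. Its edge tiles stood at 1.87 and 1.62, 5.29 times the other marks, 12.9% of them were rich, and they fell by 0.21 (−0.25 to −0.18). Inside the pairs of family 5, where few reads can be placed (1927 and 1640), H3K9me3 was 12.1 times the other marks and fell by 0.30 (−0.39 to −0.20). Families 2 and 3, with 574 and 449 pairs, had no excess at their edges, 1.01 and 1.02 times the other marks, and changed by 0.02 (−0.02 to 0.06) and −0.05 (−0.10 to −0.01). Family 7 had an excess of 2.09 and a rise of 0.06 (0.005 to 0.12), which was the only rise among the edges of the 10 largest families.

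The mark reached a few kb beyond the pairs. In family 1 the ratio to the other marks in the Dicer KO was 1.92 at 2 kb outside, 1.32 at 4 kb and 1.19 at 6 kb, and in family 5 it was 2.42 at 2 kb. The next tile outside family 1 changed by −0.05 (−0.07 to −0.04), less than the edge itself. Rich tiles lost the mark both near pairs and away from them, slightly more away from them. With a level under 20, the 1156 within 4 kb fell by 0.20 (−0.21 to −0.18) and the 2739 farther away by 0.23 (−0.24 to −0.22).

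**Figure D5:**
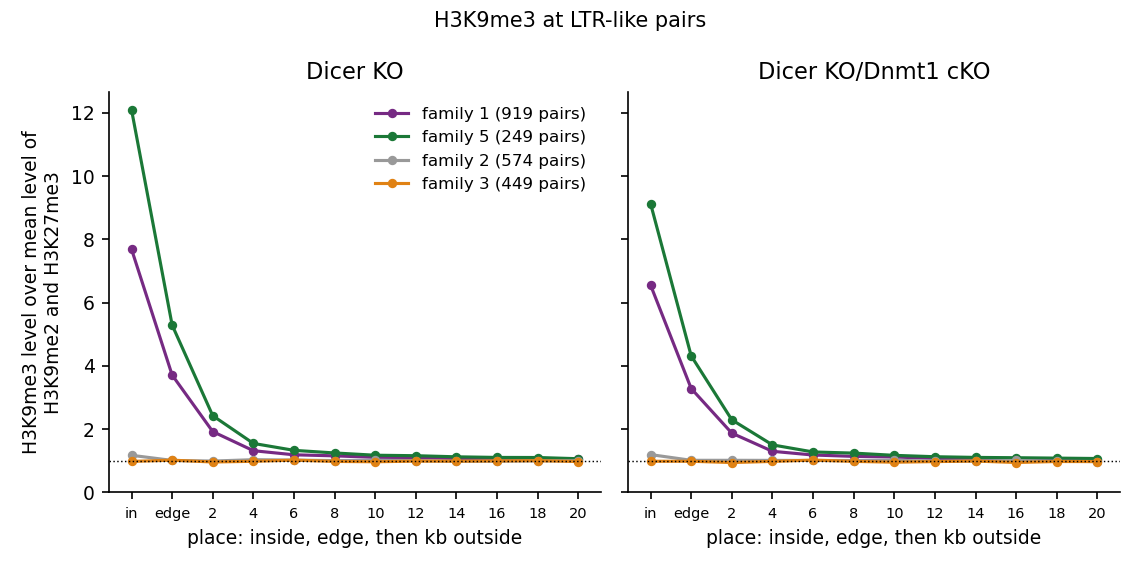
H3K9me3 level over the mean level of H3K9me2 and H3K27me3 (vertical) inside LTR-like pairs, at their edges and at distances of 2 to 20 kb outside (horizontal), for 4 families in each genotype. Families 1 and 5 stand above 1 inside and at the edge, at 3.71 and 5.29 at the edge in the Dicer KO, whereas families 2 and 3 stay near 1.

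Marker genes were used to check the labels through H3K27me3, the Polycomb mark that covers silent developmental genes in ESCs. In the 4 kb around the starts of 8 developmental genes its level was 6.16 before and 4.67 after Dnmt1 deletion. Around the starts of 7 pluripotency genes it was 0.783 and 0.709, and around 7 housekeeping genes 0.151 and 0.235, where all coding starts had 1.38 and 1.27. Genes of feeder fibroblasts had 3.83 and 3.10, with Thy1 at 5.48 and 3.86 and Col1a2 at 2.39 and 2.09. A pluripotency gene, Esrrb, went the other way, with 2.65 and 2.51, above Col1a2. By list means, both libraries showed the pattern of ESCs. H3K9me3 was near or below average in these lists, and none of their start windows held a rich tile. At Nanog it went from 56 to 33 reads (−0.83, −1.49 to −0.18), and at Esrrb and Pou5f1 there were 27 and 30, and 16 and 14 reads.

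At pluripotency starts as a list, H3K9me3 changed by −0.22 (−0.58 to 0.14), so the interval included 0, as it did for developmental, fibroblast and housekeeping starts. Developmental starts had an H3K9me3 level of 0.720 and 0.710, with 34 and 24 reads at Sox17, 31 and 37 at Gata4, and 29 and 25 at T. Over the bodies of these genes the level rose from 0.711 to 0.801 (0.17, 0.04 to 0.30). Fibroblast starts had 0.639 and 0.726, led by Col1a2 (31 and 33 reads), Fbn1 (15 and 27) and Lox (21 and 17). Housekeeping starts had 0.487 and 0.476, led by Ppia (26 and 18) and Eef1a1 (16 and 22), followed by Actb (13 and 15) and Tbp (18 and 10) with equal totals. The 1081 olfactory receptor genes, which lie in silent clusters, had 1.03 and 1.01 over their bodies (−0.03, −0.05 to −0.002), with the most reads per kb at Olfr149 (80 and 85), Olfr401 (39 and 40) and Olfr784 (37 and 31).

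Germline genes, whose promoters are silenced by CpG methylation in ESCs, had a list value above 0. Over the 12 starts the level went from 1.16 to 1.37, a rise of 0.25 (0.05 to 0.44), while over the bodies of the same genes the change was 0.01 (−0.06 to 0.08). Most reads lay at Brdt, a chromatin reader of spermatids (40 and 60, 0.52, −0.08 to 1.14), Tex101, a sperm surface gene (44 and 55, 0.26, −0.34 to 0.87), and Mael, a piRNA pathway gene, which rose from 33 to 57 (0.73, 0.08 to 1.39). Dazl and Hormad1, chosen after their values were seen, had values below 0 (42 and 29 reads, −0.60, −1.33 to 0.12, and 37 and 35 reads, −0.14, −0.85 to 0.56). H3K27me3 at the same starts rose as well, from 1.71 to 1.94 (0.18, 0.04 to 0.32). None of these starts held a rich tile.

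The targeted genes were not rich in H3K9me3. Dnmt1 held 174 and 161 reads over 24 tiles (chr9:20711650-20757317), a level of 0.509 and 0.451, and Dicer1 290 and 330 over 34 tiles (chr12:105925952-105990162), a level of 0.599 and 0.653. In both genes the interval of the H3K9me3 change included 0. H3K9me2 rose over Dnmt1 (0.58, 0.24 to 0.93) and over Dicer1 (0.22, 0.008 to 0.43). H3K27me3 rose over Dicer1 (0.29, 0.04 to 0.54), while its interval over Dnmt1 included 0 (0.28, −0.09 to 0.65). Summed over the 3 marks, the lowest value among the Dnmt1 tiles, chosen after it was seen, was −1.97 (chr9:20744001-20746000, 8 and 2 reads), with an interval of −5.24 to 0.36. At this depth, whether a stretch of Dnmt1 was missing could not be told from the reads.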

How the data were processed

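ChIP-seq of H3K9me3, H3K9me2 and H3K27me3 was used, 1 library per mark and genotype. For each tile of 2 kb the authors deposited the log2 ratio of reads found to reads expected, made with Trim Galore, Bowtie2, a mapping quality of at least 20, NCBIM37 (Ensembl v67) and SeqMonk; their methods state 1 kb tiles. Of 25 value columns, 6 matched the labels; the other 19 were left aside. Turning the log2 ratios back gave whole reads, with 1 value over 0.1 reads from a whole number, and tiles without reads stood at 0.9 of a read. Chromosome lengths equalled those of the reference, and GENCODE supplied genes. Kcnq1ot1, Peg13 and the marker Tfcp2l1 were not matched in it, and Hprt lies on chromosome X. Python 3.11.15, numpy 2.4.6, pandas 2.3.3, scipy 1.17.1, numba 0.67.0 and matplotlib 3.10.9 were used, and the scripts were tested on simulated data.

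Intervals of changes are exact conditional binomial intervals. The imprinted tile was sought within 5 kb of any transcript start, and up to 20 kb upstream for Meg3 and 40 kb for Rasgrf1. LTR-like pairs shared at least 50% of words of 13 bases over 250 to 1200 bases, families shared 30%, and 3 pairs on tiles with a level of at least 20 were left out after their values were seen. Named were Dnmt1, Dicer1, every imprinted gene, the 8 rich regions with the largest fall, rise and level (at least 100 reads), and the 3 members of other lists with most H3K9me3 reads per kb. Alternatives concerned scaling, minimum reads, tile size, the choice of rich tiles, windows and word copies. Members and lists were chosen with earlier results of these data known.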

Additional observations from a re-analysis of the deposited data

How the results depend on the processing

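No paired analysis was possible because there was 1 H3K9me3 library of either genotype. Of 31 alternatives to 10 results, 12 left the value within its interval or, for a count, within 1.5 times. Of these, TGCCGC at levels under 20 holds the same 41 tiles and could not move. The imprinted median was judged by its spread over genes, which is not an error of the comparison; it was −0.58 with the median ratio set to 0 and −0.41 with tiles chosen in the Dicer KO/Dnmt1 cKO, added after seeing the data. The 2-fold share of tiles was 1.23% where the mean reached 30 reads, 8.15% with no minimum and a pseudocount, and 0.194% in 10 kb tiles, where sums hold more reads. Rich regions numbered 12437 at a level of 2 and 207 at a level of 5, as the threshold alone requires. The summed change over rich tiles was −0.018 with the median ratio set to 0, −0.047 and 0.028 with tiles chosen from either library alone (Dicer KO first, then Dicer KO/Dnmt1 cKO), 0.033 at a level of 5 and −0.21 without the 0.1% of tiles with most reads. It was −0.22 at levels under 20, a setting chosen after seeing the data. With at least 200 reads (549 regions), 37 rich regions were lower and 0 higher. In the main set, with at least 100 reads, changes were also counted from the median of the rich regions. In that setting, chosen after seeing the data, 37 were lower and 28 higher. The median at imprinted DMRs was −0.31 over whole windows. In tiles with 30 or more CpGs the change was 0.078 without the 0.1% of tiles with most reads, in the most repetitive tiles −0.060 with words of at least 1000 copies, and with 4 or more TGCCGC −0.38 over all tiles with at least 50 reads. Except where the construction shows it, the cause was not tested. Depth limits single tiles: at 13 reads only large changes exceed counting error.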

Other observations

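Rich tiles were clustered along chromosomes, in places chosen after their values were seen. Of 2482 windows of 1 Mb, 1092 held no rich tile, while 38 lay in 1 window of chromosome 4 (chr4:146000001-147000000), around the zinc finger gene Zfp600, and 24 in 1 of chromosome 6 (chr6:37000001-38000000), around Dgki and Creb3l2. The former window went from 7891 to 7776 reads (−0.08, −0.13 to −0.04) and the latter from 9593 to 9960 (−0.009, −0.05 to 0.03). The longest rich region, 28 kb, lay in the first of them, 526 bp from Gm13152 (chr4:146838001-146866000), and went from 1055 to 913 reads (−0.27, −0.40 to −0.14). A region of 20 kb, 927 bp from B930036N10Rik (chr1:173412001-173432000), held 463 CpGs and 42 TGCCGC matches and went from 650 to 564 reads (−0.27, −0.43 to −0.10).

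Changes over whole windows were small. Among 2402 windows with at least 2000 reads they ran from −0.26 to 0.21, with a median of −0.002. The largest rise was around Tcf7l2, a transcription factor of Wnt signalling (7182 to 8680 reads, 0.21, 0.17 to 0.26), followed by a window around Grip1 (6927 to 8335 reads, 0.20, 0.16 to 0.25). A window near Gm20516 (chr17:39000001-40000000) with 4 rich tiles fell from 12405 to 11138 reads (−0.22, −0.26 to −0.18), and H3K27me3 changed there by −0.46. Lrrc7, a gene of synapses, lay in a window that fell from 7898 to 7191 reads (−0.20, −0.24 to −0.15) and held no rich tile. The window with the lowest value held the pheromone receptor genes Vmn2r38, Vmn2r39 and Vmn2r40 and few reads per tile, 1407 and 1229 over 1 Mb (−0.26, −0.37 to −0.15).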
